A study of Homo sapiens with 9 samples.

Results

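The integrins and focal adhesion adaptors described here are 34 genes, taken by gene symbol from a table of 58735 genes: 19 integrin chains and 15 cytoplasmic proteins that link integrins to actin or relay their signals. All 34 were found, and 26 of them passed a filter on low values (at least 1 FPKM, fragments scaled to exon length and library size, in at least 3 of 9 libraries). RNA was sequenced from GBM43, a line labelled as glioblastoma, seeded in 3D hyaluronic acid devices into which the cells invade. The MK801 group came from devices given 50 µM MK801, an inhibitor of the NMDA class of glutamate receptors, with core and invasive cells pooled because few cells had left the core. The invasive and core groups came from control devices, in which a scalpel separated the cells that had left the core from those that had not. The treatment protocol names DMSO as what control devices received, while the design text names culture medium. Each of the 3 groups had 3 libraries of poly-A RNA, from cells freed with hyaluronidase. The labels give 1 cell line, no cell sorting and do not state whether replicate libraries began as separate cultures. The p-values therefore speak of library-to-library spread alone, which may be technical.

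Integrins are surface receptors built from an alpha and a beta chain, and the pairing sets which matrix protein is bound. The ITGB1 chain is the common partner of the collagen-binding alpha chains, of several laminin-binding ones and of ITGA5, which binds fibronectin, while ITGB5 pairs with ITGAV to bind proteins with an RGD motif such as vitronectin. Once bound, integrins gather talins, kindlins, vinculin, paxillin and kinases into focal adhesions, through which a cell pulls on the matrix. Glioblastoma cells are known to use such adhesions when they move through matrix.

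A pair of collagen-binding alpha chains, ITGA10 and ITGA2, stood on opposite sides of the invasive and core comparison, and the 250 bases before the RefSeq start of each gene are shown because they differ in base composition. Both were read 5′ to 3′ on the gene's strand from RefSeq on GRCh38.p14, at chr1:145910051-145910300 (minus strand) for ITGA10 and chr5:52989102-52989351 (plus strand) for ITGA2. Capitals mark GGGCGG, the core of the Sp1 motif, and GGAATG, the core of the TEAD motif, on either strand.
ITGA10: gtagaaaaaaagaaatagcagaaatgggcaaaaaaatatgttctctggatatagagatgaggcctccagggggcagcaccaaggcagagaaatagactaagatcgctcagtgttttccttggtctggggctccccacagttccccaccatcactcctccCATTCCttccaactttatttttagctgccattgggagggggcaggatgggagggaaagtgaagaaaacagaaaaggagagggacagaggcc
ITGA2: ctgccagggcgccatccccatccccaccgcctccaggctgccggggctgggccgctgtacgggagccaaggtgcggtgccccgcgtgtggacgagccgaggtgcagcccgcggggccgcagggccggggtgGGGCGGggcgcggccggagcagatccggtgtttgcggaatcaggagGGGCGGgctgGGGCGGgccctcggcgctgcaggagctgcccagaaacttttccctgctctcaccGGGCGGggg
The ITGA10 stretch had a GC content of 48.4%, 0 matches to GGGCGG and 1 to GGAATG, while the ITGA2 stretch had 76.4%, 4 and 0. Neither held TGANTCA, the AP-1 motif. ITGA11, also a tested collagen-binding chain, had a promoter GC content of 71.2% and 0 matches to GGGCGG or GGAATG. It was higher in invasive than in core libraries (log2 0.8), as ITGA10 was. ITGA11 reached 1 FPKM in the invasive libraries alone, and so passed the filter only through them. Whether promoter composition goes with direction was not tested. The RefSeq start of ITGA10 lies within the gene as GENCODE 29 draws it (its 5′ end is at position 145910189), so the stretch spans both sides of that end, and the same holds for ITGA2 (5′ end at position 52989326). RefSeq promoters were matched for 25 of the 34 genes, 44 in all, and GGGCGG occurred in 24 of the 44, against 42.6% of all 35116 promoters of this length. GGAATG occurred in 7 of the 44, against 11.9% of all, and TGANTCA in 2, against 6.57%. A match of letters is a description and not a binding site.

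The recovered depth was 15.6 to 54.4 M fragments (M for 1e6) per library, the highest in MK801 replicate 3. The MK801 libraries spread most. The pooled SD of the tested members was 0.7 in MK801, 0.345 in invasive and 0.255 in core libraries, on the log2(FPKM + 1) scale, and MK801 replicate 3 stood close to the core libraries at many members. Weighted by fragments, transcript GC content was 54.2, 53.1 and 50.5% in MK801, 52.7 to 54.4% in invasive and 49.8 to 51.1% in core libraries, and member values are therefore also given with each library's trend over transcript GC content removed. Of 11 glioblastoma and glial markers, 5 reached 1 FPKM in any library, led by VIM (897 to 2100 FPKM), while OLIG2 and CHI3L1 were at 0 in all 9 libraries, so the label rests on few of its markers. In bulk RNA, fewer cells of a type and less RNA per cell cannot be told apart, at any result that follows.

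Among the 4 collagen-binding alpha chains, ITGA10 and ITGA2 carried most of the transcripts, and they differed in opposite directions. ITGA10 (ENSG00000143127, chromosome 1, 145891208 to 145910189) binds type II and other collagens in cartilage. It stood at 27.9, 32.8 and 21.4 FPKM in the MK801 libraries, at 48.4, 71.8 and 39.1 FPKM in the invasive libraries and at 31.8, 24.5 and 25.4 FPKM in the core libraries. Every invasive library was above every core and every MK801 library. ITGA2 (ENSG00000164171, chromosome 5, 52989326 to 53094779), the alpha chain of the collagen receptor of platelets and epithelia, stood at 1.88, 8.45 and 17.3 FPKM in MK801, 4.97, 6.92 and 6.88 FPKM in invasive and 11.9, 14.4 and 15.4 FPKM in core libraries. Every invasive library lay below every core library, while the MK801 libraries spanned both groups and went beyond them. ITGA11, a fibrillar collagen receptor known from fibroblasts, was weak at 0.924, 0.668 and 0.27 FPKM in MK801, 1.91, 1.17 and 1.1 FPKM in invasive and 0.546, 0.279 and 0.265 FPKM in core libraries, the invasive libraries again above all others. ITGA11 reached 1 FPKM in the invasive libraries alone, so it passed the filter only through the group where it was high. Its direction is therefore not evidence in any count or median given below. ITGA1, a receptor for collagen IV among others, did not pass the filter and lay between 0.137 and 0.751 FPKM.

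**Figure D1:**
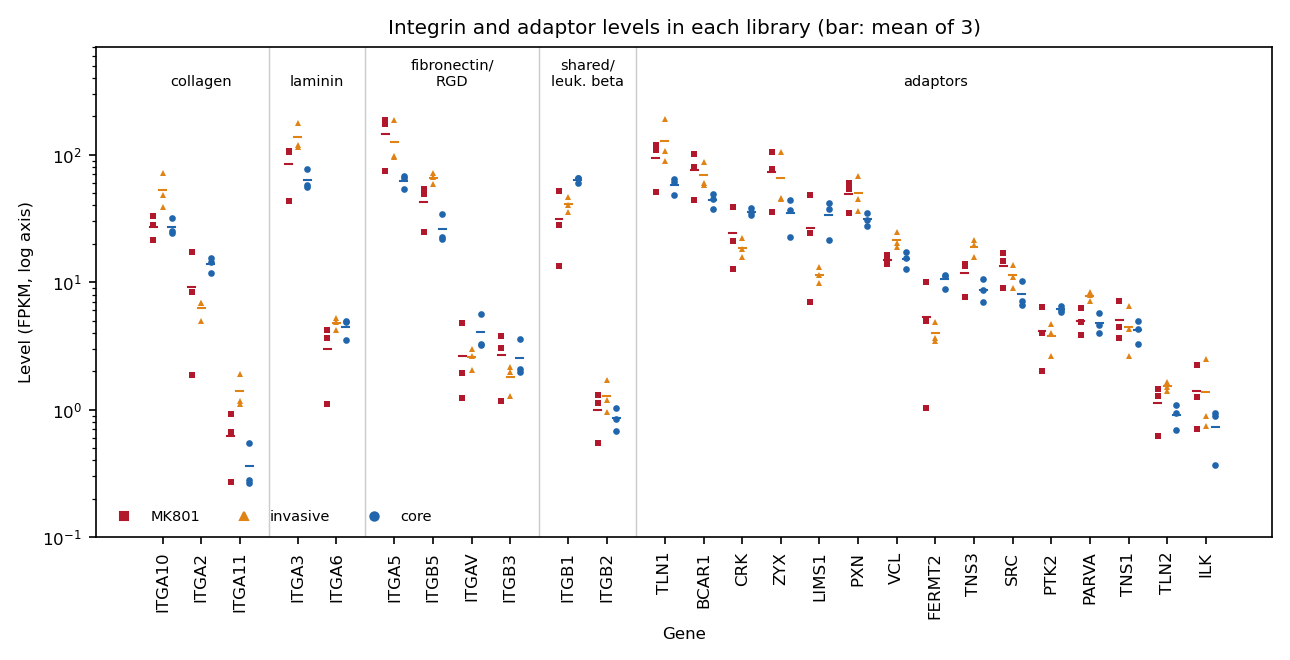
Levels in FPKM (log axis) of the 26 tested genes in each of 9 libraries, by class: red squares MK801, orange triangles invasive, blue circles core, 3 libraries each, with a bar at each mean. Invasive libraries lie above core libraries for ITGA10 and ITGB5 and below them for ITGA2, ITGB1, LIMS1 and FERMT2, and the red squares are the most scattered.

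The laminin receptors were carried by ITGA3. ITGA3 (ENSG00000005884, chromosome 17, 50055968 to 50090481), the alpha chain that binds laminins of basement membranes together with ITGB1, stood at 107, 105 and 43 FPKM in MK801, 114, 177 and 120 FPKM in invasive and 77.6, 58 and 55.6 FPKM in core libraries. The invasive libraries were above both other groups, and MK801 replicate 3 was the lowest of all 9. ITGA6, which pairs with ITGB1 or ITGB4 and is used as a marker of glioma stem cells, was far weaker, with means of 2.98 ± 1.65 FPKM in MK801, 4.8 ± 0.52 FPKM in invasive and 4.47 ± 0.798 FPKM in core libraries (SD, n = 3 each). The invasive and core libraries of ITGA6 overlapped, and all MK801 libraries lay below the invasive ones. ITGA7, known as a laminin receptor of muscle, and ITGB4, the hemidesmosome beta chain, did not pass the filter. ITGB4 stood at 0.46, 0.46 and 0.253 FPKM in MK801, 0.963, 2.01 and 0.652 FPKM in invasive and 0.415, 0.431 and 0.308 FPKM in core libraries, and ITGA7 lay between 0.188 and 1.24 FPKM.

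The fibronectin and RGD receptors were dominated by ITGA5 and ITGB5. ITGA5 (ENSG00000161638, chromosome 12, 54395261 to 54419460), the alpha chain of the main fibronectin receptor, stood at 188, 174 and 75 FPKM in MK801, 96.3, 186 and 97.3 FPKM in invasive and 67.6, 66.1 and 54.1 FPKM in core libraries. It was above every core library in all 6 other libraries. Together ITGA3 and ITGA5 made up 89.9, 85.3 and 70.8% of the summed FPKM of all alpha chains listed in MK801, 77, 80.3 and 79.5% in invasive and 73.2, 72.7 and 67.8% in core libraries. ITGAV, the alpha chain shared by the RGD receptors, was weak, at 1.23, 1.93 and 4.79 FPKM in MK801, 2.66, 2.06 and 2.99 FPKM in invasive and 3.21, 3.3 and 5.6 FPKM in core libraries. ITGB3, the beta chain of the platelet fibrinogen receptor and an ITGAV partner, lay between 1.17 and 3.77 FPKM with overlapping groups, and 51.6% of its exon length is shared with another annotated gene, so its level is uncertain.

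Of the other RGD and related receptors, ITGA4, ITGA8, ITGA9 and ITGB6 were at or near 0, and ITGB8 was weak. ITGA8 and ITGA9 had 0 fragments in all 9 libraries, which allows up to 0.0282 FPKM for ITGA8 and 0.0256 FPKM for ITGA9 in the least sensitive library (counting error only). ITGA4, the alpha chain by which leukocytes bind fibronectin and VCAM1, had at most 10 fragments in any library, and ITGB6, an epithelial beta chain, at most 11. ITGB8, which with ITGAV activates latent TGF-beta in brain, had means of 0.59 ± 0.48 FPKM in MK801, 0.489 ± 0.0412 FPKM in invasive and 0.851 ± 0.369 FPKM in core libraries, and did not pass the filter.

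The balance of beta chains differed between the control fractions. ITGB1 (ENSG00000150093, chromosome 10, 32900319 to 33005792) stood at 13.3, 28.1 and 52.3 FPKM in MK801, 35.8, 40.4 and 46.3 FPKM in invasive and 65.7, 59.5 and 65.6 FPKM in core libraries. Every core library was above all 6 others. ITGB5 (ENSG00000082781, chromosome 3, 124761948 to 124901418) stood at 54.1, 49.1 and 24.9 FPKM in MK801, 66.6, 72.5 and 58.8 FPKM in invasive and 34.5, 22 and 22.5 FPKM in core libraries, with every invasive library above all others. ITGB1 made up 18.9, 33.8 and 63.6% of the summed FPKM of the listed beta chains in MK801, 33.4, 33.9 and 42.7% in invasive and 63, 68.4 and 71.1% in core libraries. The summed level itself was 70.2 to 83.3 FPKM in MK801, 107 to 119 FPKM in invasive and 87 to 104 FPKM in core libraries. ITGB2, the leukocyte beta chain, stayed between 0.552 and 1.72 FPKM, and the summed level of 10 leukocyte markers was 2.74 to 6.86 FPKM in MK801, 5.27 to 6.42 FPKM in invasive and 2.05 to 3.4 FPKM in core libraries. CSF1R made up most of that sum in invasive (mean 4.81 FPKM) and core libraries (mean 1.98 FPKM). Of the rest, PTPRC, CD14, CD68 and ITGAX had lower means in invasive than in core libraries, while FCER1G, CD3E and ITGAL had higher ones.

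Ratios of FPKM within a library do not depend on how that library was scaled, and a pair of ratios, chosen after the values were seen, is given without a test. The ratio of ITGB5 to ITGB1 was 4.07, 1.75 and 0.477 in MK801, 1.86, 1.79 and 1.27 in invasive and 0.525, 0.37 and 0.343 in core libraries. The ratio of ITGA10 to ITGA2 was 14.9, 3.88 and 1.23 in MK801, 9.75, 10.4 and 5.69 in invasive and 2.67, 1.7 and 1.65 in core libraries. For both ratios every invasive library was above every core library, while MK801 replicate 1 was the highest of all 9 and MK801 replicate 3 lay at core level or lower. Both pairs also join a gene of higher to one of lower GC content (ITGB5 54.6% and ITGB1 40.9%, ITGA10 52.9% and ITGA2 42.1%). With the GC trend removed, the difference of ITGB5 and ITGB1 in log2(FPKM + 1) was 0.9, 0.41 and -0.38 in MK801, 0.45, 0.16 and 0.26 in invasive and -0.43, -0.84 and -0.59 in core libraries. That of ITGA10 and ITGA2 was 2.48, 1.53 and 0.81 in MK801, 2.7, 2.66 and 2.3 in invasive and 1.74, 1.18 and 1.42 in core libraries, so the invasive and core libraries stayed apart in both.

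**Figure D2:**
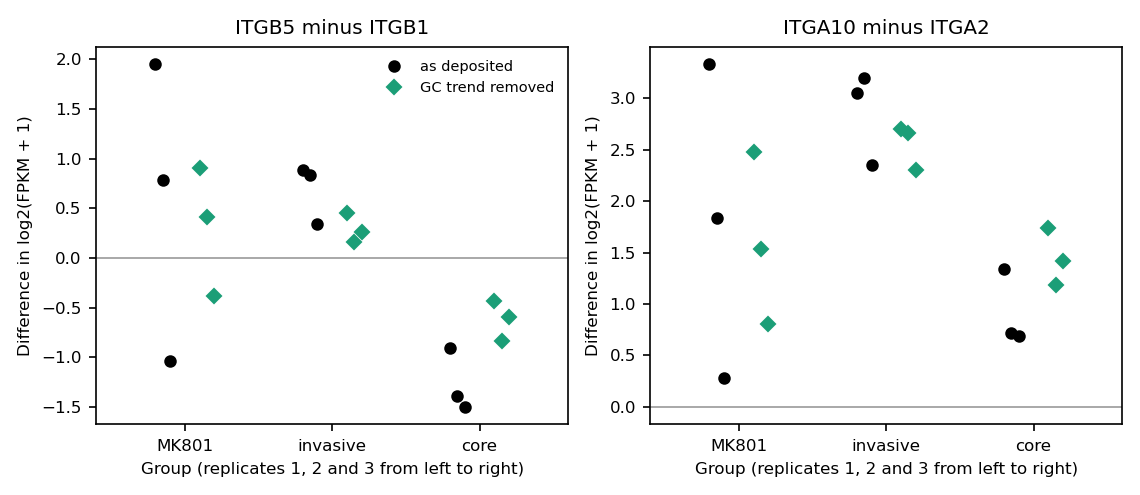
Difference in log2(FPKM + 1) between ITGB5 and ITGB1 and between ITGA10 and ITGA2 in each library, replicates 1 to 3 from left to right within a group: black circles as deposited, green diamonds with the GC trend removed. Invasive libraries lie above core libraries in both panels and in both forms, and the MK801 libraries are the most scattered.

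All 15 adaptors passed the filter, and 11 were higher and 4 lower in invasive than in core libraries as deposited, against 6 higher and 9 lower with the GC trend removed. TLN1 (talin), which binds the beta chain tail and actin, stood at 109, 120 and 51.3 FPKM in MK801, 107, 189 and 88.8 FPKM in invasive and 64.1, 61.3 and 48.7 FPKM in core libraries, with every invasive library above every core library. TNS3, a tensin that ties integrin tails to actin, stood at 13.5, 14 and 7.71 FPKM in MK801, 19.6, 21.5 and 15.9 FPKM in invasive and 10.6, 6.98 and 8.7 FPKM in core libraries. PARVA, a parvin that binds ILK and actin, stood at 6.27, 4.84 and 3.83 FPKM in MK801, 7.91, 7.07 and 8.38 FPKM in invasive and 5.73, 4.03 and 4.61 FPKM in core libraries. For TNS3 and PARVA every invasive library was above all 6 others.

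FERMT2 (kindlin-2), which activates integrins beside talin, stood at 1.03, 4.95 and 10.1 FPKM in MK801, 3.45, 3.67 and 4.83 FPKM in invasive and 8.86, 11.2 and 11.3 FPKM in core libraries. LIMS1 (PINCH1), which binds ILK, stood at 6.97, 24.4 and 48.4 FPKM in MK801, 11.3, 9.77 and 13.2 FPKM in invasive and 21.5, 42 and 37.7 FPKM in core libraries. CRK, an adaptor that relays signals from BCAR1 and paxillin, stood at 12.7, 21 and 39.2 FPKM in MK801, 18.3, 15.7 and 22.2 FPKM in invasive and 33.5, 38.3 and 35.3 FPKM in core libraries. For these 3 genes every invasive library was below every core library, and MK801 replicate 1 was below the invasive range. MK801 replicate 3 lay within the core range for FERMT2 and above it for LIMS1 and CRK. PTK2 (focal adhesion kinase) had the same order in the control fractions, with 2, 4 and 6.38 FPKM in MK801, 4, 2.62 and 4.74 FPKM in invasive and 6.05, 5.8 and 6.49 FPKM in core libraries.

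The remaining adaptors were BCAR1, ZYX, SRC, TNS1, TLN2, ILK, PXN and VCL. BCAR1, the scaffold phosphorylated by SRC, averaged 75.3 ± 29.1 FPKM in MK801, 68.9 ± 16.6 FPKM in invasive and 44.2 ± 5.88 FPKM in core libraries. ZYX (zyxin), a sensor of tension on actin, averaged 72.8 ± 35.3 FPKM in MK801, 65.4 ± 35.2 FPKM in invasive and 34.7 ± 11.1 FPKM in core libraries. SRC, the kinase, averaged 13.5 ± 4.15 FPKM in MK801, 11.3 ± 2.33 FPKM in invasive and 8.03 ± 1.96 FPKM in core libraries (SD, n = 3 each throughout). TNS1 had overlapping groups, at 2.62 to 7.07 FPKM over all libraries, and TLN2, the second talin, lay between 0.616 and 1.66 FPKM. Part of the exon length overlaps another annotated gene for ILK (78.5%, mainly TAF10 on the opposite strand), PXN (12.4%) and VCL (11.1%), and whether the authors counted by strand is not given in the sources used here. ILK lay between 0.369 and 2.49 FPKM. PXN (paxillin) averaged 49.6 ± 12.8 FPKM in MK801, 49.8 ± 16.8 FPKM in invasive and 31.2 ± 3.6 FPKM in core libraries, and VCL (vinculin) averaged 15 ± 1.24 FPKM in MK801, 21.3 ± 3.1 FPKM in invasive and 15.2 ± 2.18 FPKM in core libraries.

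The first comparison set invasive against core cells of control devices, that is, cells that had moved into the gel against cells that had not. ITGB5, TNS3 and ITGA10 were the members furthest above core, and LIMS1, CRK and FERMT2 those furthest below it, ordered by the limma statistic. In the fit of all 9 libraries no member passed an adjusted p of 0.05 by limma with Benjamini-Hochberg adjustment over all genes, and neither did any of the 11845 genes (0%). At an unadjusted p under 0.05 there were 12 members of 26, against 37.7% of all genes. The log2 difference of ITGB5 was 1.32 (SE 0.31, limma adjusted p = 0.0922), that of TNS3 1.04 (SE 0.27, limma adjusted p = 0.0973) and that of ITGA10 0.9 (SE 0.27, limma adjusted p = 0.106). The log2 difference of LIMS1 was -1.44 (SE 0.54, limma adjusted p = 0.111), that of CRK -0.9 (SE 0.34, limma adjusted p = 0.111) and that of FERMT2 -1.2 (SE 0.48, limma adjusted p = 0.116). In this fit the spread came from all groups, and the count was 11 members of 26 (39.5% of all genes) without MK801 replicate 1 and 13 (41.3% of all genes) without MK801 replicate 3. With 3 libraries a group, the smallest p an exact permutation test allows is 0.1.

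Fitted on the 6 control libraries alone, a choice made with earlier results of these data known, limma with Benjamini-Hochberg adjustment called 16 of 26 members, against 52.2% of all genes, a share near that of genes in general. The 10 that rose were ITGA10, ITGA11, ITGA3, ITGA5, ITGB5, VCL, TLN1, PARVA, BCAR1 and TNS3, and the 6 that fell were ITGA2, ITGB1, LIMS1, PTK2, FERMT2 and CRK. Of these, ITGA11 passed the filter only through its invasive libraries. Adjusted p was 0.00339 for ITGB5 (log2 1.32, SE 0.21), 0.00434 for TNS3 (log2 1.04, SE 0.19) and 0.00627 for ITGA3 (log2 1.08, SE 0.23) by limma. It was 0.00312 for FERMT2 (log2 -1.2, SE 0.17), 0.00388 for ITGA2 (log2 -1.04, SE 0.17) and 0.00414 for LIMS1 (log2 -1.44, SE 0.25). With the GC trend removed, 8 members were called, against 16.9% of all genes. ITGA6, ITGB5, VCL, PARVA and TNS3 rose (5 members, against 9.19% of all genes), and LIMS1, FERMT2 and CRK fell (3 members, against 7.7%). Without core replicate 3 the count was 8, against 28.7% of all genes. TPM rescaling gives every library the same sum, and it moved the median difference of all genes to -0.37. With it 7 members rose and 8 fell, against 1614 and 4083 of the 11845 genes tested. Of all genes called 28.3% were then higher, against 50.4% as deposited.

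The libraries of the invasive and core groups did not overlap for 20 of 26 members, 13 higher and 7 lower in invasive libraries, against 64.8% of all genes (32% higher, 32.8% lower). With the GC trend removed the number was also 20, but not of the same genes, with 11 higher and 9 lower. The share of all genes was then 42.2% (21.8% higher, 20.4% lower). ZYX, ITGB1, PXN and TLN2 no longer stood apart, while TNS1, ITGA6, ITGB3 and ITGB2 now did. BCAR1 changed from higher to lower and ITGAV from lower to higher. The median log2 difference was 0.29 over the 11 tested integrins (7 higher, 4 lower) and 0.44 over the 15 adaptors (11 higher, 4 lower), against -0.02 over all genes. With the GC trend removed these medians were 0.44 for integrins (8 higher, 3 lower) and -0.04 for adaptors (6 higher, 9 lower). Collagen-binding chains had a median of 0.8 (2 of 3 higher), laminin-binding chains 0.59 (2 of 2 higher) and the fibronectin and RGD class 0.31 (2 of 4 higher). The median of 0.8 is the value of ITGA11, which passed the filter only through its invasive libraries.

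**Figure D3:**
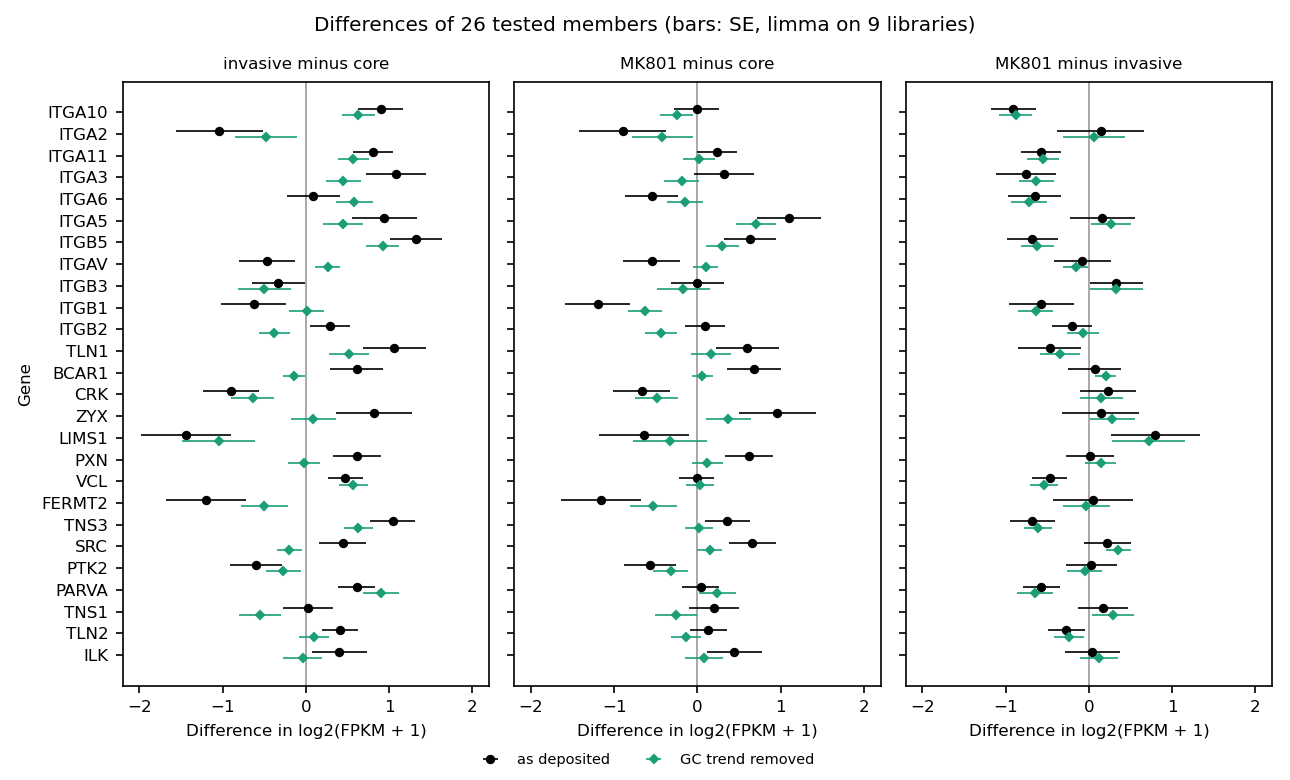
Difference in log2(FPKM + 1) of the 26 tested genes for invasive minus core, MK801 minus core and MK801 minus invasive, with bars of 1 SE from limma on 9 libraries: black circles as deposited, green diamonds with the GC trend removed. In invasive minus core ITGB5 lies at 1.32 and LIMS1 at -1.44, and in MK801 minus invasive ITGA10 lies lowest at -0.91.

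The second comparison set pooled MK801 cells against core cells. By the limma statistic ITGA5, SRC and PXN ranked highest, and ITGB1, FERMT2 and CRK lowest. By log2 difference ZYX (0.96) lay further above core than SRC and PXN, and ITGA2 (-0.9) further below it than CRK. In the fit of all 9 libraries no member and no gene (0%) passed the threshold by limma, and 4 members had an unadjusted p under 0.05, against 21.2% of all genes. The log2 difference of ITGA5 was 1.1 (SE 0.39, limma adjusted p = 0.235), that of SRC 0.66 (SE 0.28, limma adjusted p = 0.235) and that of PXN 0.62 (SE 0.29, limma adjusted p = 0.236). The log2 difference of ITGB1 was -1.2 (SE 0.39, limma adjusted p = 0.235), that of FERMT2 -1.16 (SE 0.48, limma adjusted p = 0.235) and that of CRK -0.67 (SE 0.34, limma adjusted p = 0.246). With the GC trend removed the log2 differences were 0.7 for ITGA5, 0.15 for SRC and 0.12 for PXN. They were -0.63 for ITGB1, -0.53 for FERMT2 and -0.49 for CRK. The libraries of the groups did not overlap for ITGA5 and PXN, which were higher, and ITGB1, which was lower, or 3 of 26 members against 18.7% of all genes (9.89% higher, 8.82% lower). After removal of the GC trend they were ITGA5, which was higher, and ITGB1 and ITGB2, which were lower, against 16.5% of all genes (8.27% higher, 8.27% lower). Without MK801 replicate 3, 17 members were called (9 higher, 8 lower), against 50.2% of all genes, and the log2 difference was 1.52 for ITGA5, -1.66 for ITGB1 and -1.07 for CRK. Without MK801 replicate 1 no member was called, and the log2 difference was -0.71 for ITGB1, -0.49 for FERMT2 and -0.3 for CRK. The MK801 minus core comparison shares its core libraries with the first one.

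The third comparison set pooled MK801 cells against the invasive cells of control devices, and it shares the invasive libraries with the first and the MK801 libraries with the second. Several integrins that were high in invasive cells were lower here. The MK801 libraries pooled core and invasive cells, so drug and fraction cannot be told apart in this or the second comparison. By limma on the 9 libraries no member and no gene (0%) passed the threshold, and 5 members had an unadjusted p under 0.05, against 8.26% of all genes. The log2 difference of ITGA10 was -0.91 (SE 0.27, limma adjusted p = 0.36), that of PARVA -0.57 (SE 0.22, limma adjusted p = 0.497) and that of TNS3 -0.68 (SE 0.27, limma adjusted p = 0.517). On the other side, the log2 difference of LIMS1 was 0.8 (SE 0.54, limma adjusted p = 0.833), that of ITGB3 0.33 (SE 0.32, limma adjusted p = 0.918) and that of SRC 0.22 (SE 0.28, limma adjusted p = 0.958). The difference of LIMS1 was 0.2 without MK801 replicate 3 and 1.52 without MK801 replicate 1, and that of TNS3 was -0.42 without MK801 replicate 3. Leaving out 1 library gave 0.1 to 0.67 for ITGB3 and 0.04 to 0.47 for SRC.

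The libraries of the MK801 and invasive groups did not overlap for 8 of 26 members, all lower in MK801, against 5.63% of all genes lower, 5.22% higher and 10.8% in either direction. They were ITGA3, ITGA6, ITGA10, ITGA11, ITGB5, VCL, PARVA and TNS3, of which ITGA11 passed the filter only through its invasive libraries. With the GC trend removed 9 were lower, ITGB1 joining them, against 9.95% of all genes, and 2 higher, BCAR1 and SRC, against 7.9%, or 11 in all against 17.9%. The fit with the GC trend removed called 0.667% of all genes by limma and 0 members. The median log2 difference of the 11 tested integrins was -0.57 (8 lower, 3 higher) as deposited and -0.55 with the GC trend removed, against 0 over all genes in both. For the 15 adaptors the median was 0.04 (10 higher, 5 lower) as deposited and 0.12 with the GC trend removed. For ITGA10, the mean was 27.3 ± 5.75 FPKM in MK801, 53.1 ± 16.8 FPKM in invasive and 27.2 ± 3.99 FPKM in core libraries (SD, n = 3 each).

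Member differences followed transcript GC content in the comparisons with core. Over the 26 members, which share libraries and depth, Spearman's rho between GC content and the log2 difference was 0.858 for MK801 minus core and 0.633 for invasive minus core, against 0.783 and 0.774 over all genes with a GC value. For MK801 minus invasive it was 0.0735 over the members and -0.248 over all genes. Of 16 members above the median GC content of tested genes (49.2%), 15 were higher in invasive than in core libraries, against 82% of all genes there, and of 10 below it 3 were higher, against 16.2%. With the GC trend removed, the invasive minus core difference of ITGB1 was 0.01, against -0.63 as deposited, and 8 members turned sign: BCAR1, ITGB1, PXN, SRC, TNS1, ITGAV, ILK and ITGB2. ITGA6 stood at 0.58 with the trend removed, against 0.09 as deposited. The part of GC content in these differences was not tested.

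**Figure D4:**
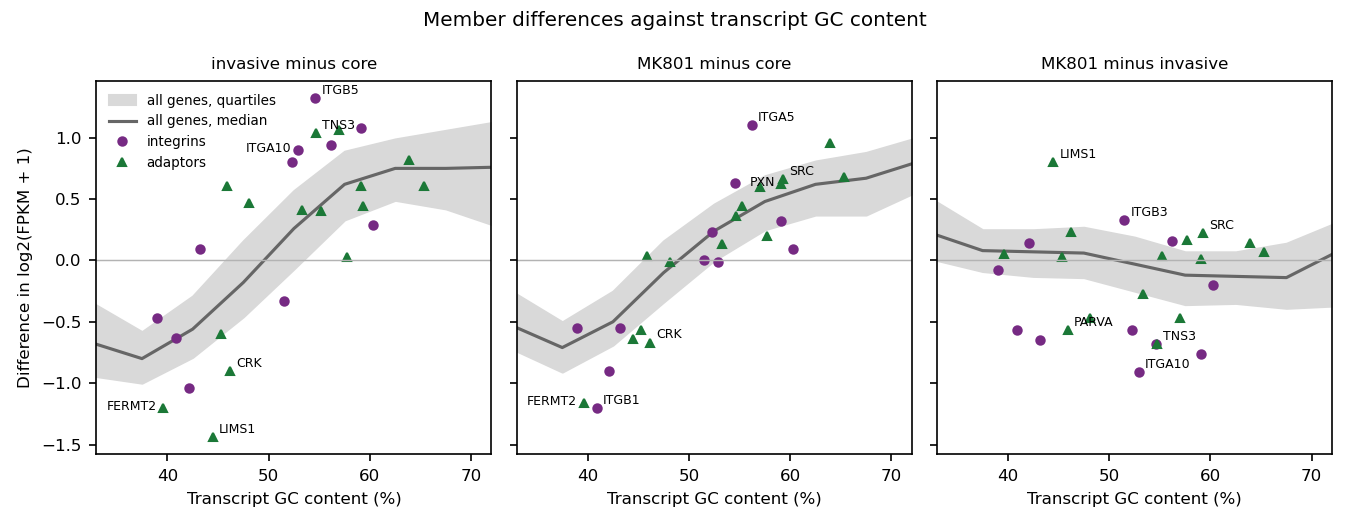
Difference in log2(FPKM + 1) against transcript GC content (%) for the 26 tested genes (purple circles integrins, green triangles adaptors), with the median (line) and quartiles (grey) of all genes in bins of 5 points of GC content. The members lie along the rising line in both comparisons with core, and in MK801 minus invasive several integrins lie below a nearly flat line.

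Other genes of the adhesion machinery, a list of 69 chosen with earlier results known, had 57 tested members. In invasive minus core 32 were higher and 25 lower (median log2 0.22), in MK801 minus core 36 and 21 (median 0.27), and in MK801 minus invasive 29 and 28 (median 0.01), with none called by limma in the fit of all 9 libraries. On the control libraries alone 23 rose and 14 fell, against 52.2% of all genes called, and with the GC trend removed 4 rose and 2 fell, against 16.9% called. KANK2, which links talin to the microtubule cortex, averaged 8.36 ± 2.87 FPKM in MK801, 16.2 ± 1.36 FPKM in invasive and 7.52 ± 1.79 FPKM in core libraries. By the limma statistic KANK2 and TNS2, a tensin (log2 0.8, SE 0.24), ranked highest in invasive minus core. RAP1A, a GTPase that activates talin (log2 -0.95, SE 0.3), and the kinase PAK2 (log2 -0.57, SE 0.23) ranked lowest. Other listed genes had larger log2 differences in both directions. With the GC trend removed the log2 differences were 0.36 for KANK2, 0.1 for TNS2, -0.23 for RAP1A and 0.09 for PAK2. On the control libraries alone KANK2 (log2 1.03, limma adjusted p = 0.00425) and the tetraspanin CD81 (log2 1.3, limma adjusted p = 0.00486) had the highest statistics. The phosphatase PTPN12 (log2 -1.38, limma adjusted p = 0.00375) and the kinase YES1 (log2 -1.08, limma adjusted p = 0.00426) had the lowest. With the GC trend removed limma gave an adjusted p of 0.122 for KANK2, 0.033 for CD81, 0.0222 for PTPN12 and 0.109 for YES1.

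In MK801 minus core the other adhesion genes with the highest statistics were GIT1, a paxillin-binding scaffold (log2 0.9, SE 0.31), and RAPGEF1, an exchange factor bound by CRK (log2 0.66, SE 0.24). Those with the lowest were CAV1, caveolin (log2 -0.82, SE 0.26), and CD47, a partner of integrins (log2 -1.01, SE 0.32), and limma gave an adjusted p of 0.235 for all 4. With the GC trend removed the log2 differences were 0.32 for GIT1, 0.2 for RAPGEF1, -0.58 for CAV1 and -0.34 for CD47. In MK801 minus invasive CRKL, a relative of CRK (log2 0.55, SE 0.23), and DAB2, an adaptor of integrin uptake (log2 0.7, SE 0.31), had the highest statistics, and KANK2 (log2 -0.92, SE 0.27) the lowest.

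Ligand genes of these integrins were higher in invasive cells than in both other groups. Of 32 ligand genes 27 were tested, and 24 were above core in invasive libraries (median log2 1.12, and 0.71 with the GC trend removed). Of the same 27, 25 were lower in MK801 than in invasive libraries (median -1.09, and -1.05 with the GC trend removed), and 16 were higher and 11 lower in MK801 than in core libraries (median 0.06). As deposited none was called in the fit of all 9 libraries, while with the GC trend removed 5 fell and 1 rose in MK801 minus invasive by limma, against 0.312% of all genes lower and 0.355% higher. On the control libraries alone 21 rose and 0 fell as deposited by limma, against 26.3% of all genes higher and 25.9% lower. After removal of the GC trend 13 rose and 0 fell there, against 9.19% higher and 7.7% lower. All 10 collagen genes were above core in invasive libraries (median 1.35), as were 5 of 6 tested laminin genes (median 0.56) and 9 of 11 fibronectin and RGD genes (median 1.12). COL3A1 and LAMA5 reached 1 FPKM in the invasive libraries alone, and SPP1 in the MK801 libraries alone. They passed the filter only through the group where they were high, so their directions in these counts are not evidence. SPP1 was the 1 gene that rose in MK801 minus invasive, and COL3A1 was among the 5 that fell.

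The most abundant collagen genes, COL6A2 and COL6A1, chains of collagen VI, averaged 505 ± 211 and 323 ± 116 FPKM in MK801, 1070 ± 423 and 746 ± 333 FPKM in invasive and 441 ± 159 and 288 ± 99.8 FPKM in core libraries. LAMB2 and LAMC1, chains of laminin, averaged 23.5 ± 5.96 and 29.7 ± 8.36 FPKM in MK801, 46.4 ± 17.8 and 43.4 ± 4.83 FPKM in invasive and 25.3 ± 3.64 and 34.7 ± 3.28 FPKM in core libraries. TGFBI, an RGD protein induced by TGF-beta, averaged 77.9 ± 48.4 FPKM in MK801, 276 ± 121 FPKM in invasive and 72.5 ± 25.3 FPKM in core libraries, and TGFB1, whose latent form carries an RGD site, averaged 213 ± 134 FPKM in MK801, 237 ± 139 FPKM in invasive and 93.4 ± 19.8 FPKM in core libraries.

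The summed level of fibroblast and pericyte markers was higher in invasive libraries than in both other groups. Their list of 10 genes, which holds COL1A1 and COL3A1 from the collagen list, summed to 44.6 to 135 FPKM in MK801, 230 to 422 FPKM in invasive and 40.5 to 78.3 FPKM in core libraries. Of its genes 7 of 10 reached 1 FPKM in any library. Within it PDGFRB averaged 24.8 ± 9.55 FPKM in MK801, 48.1 ± 15.5 FPKM in invasive and 11.6 ± 2.97 FPKM in core libraries, and COL1A1, at 217, 341 and 185 FPKM in the invasive libraries, made up most of the sum there. RGS5, a pericyte marker, had the other order, with means of 0.267 ± 0.239 FPKM in MK801, 0.0989 ± 0.059 FPKM in invasive and 0.505 ± 0.107 FPKM in core libraries, while DCN stayed under 1 FPKM and PDPN at or near 0. Endothelial markers summed to 1.34 to 1.6 FPKM in MK801, 1.79 to 5.34 FPKM in invasive and 1.36 to 1.56 FPKM in core libraries. Among them CDH5 stood at 0.558, 0.107 and 0.0354 FPKM in MK801, 1.43, 3.15 and 0.758 FPKM in invasive and 0.00591, 0.00957 and 0.0729 FPKM in core libraries, while EMCN was at 0. Platelet markers summed to 0.866 to 2.74 FPKM in MK801, 1.52 to 2.76 FPKM in invasive and 1.61 to 2.14 FPKM in core libraries, and neuron markers to at most 0.547 FPKM in any library. Epithelial markers summed to 7.32 to 28.3 FPKM in MK801, 12.9 to 28 FPKM in invasive and 6.23 to 8.99 FPKM in core libraries, with CDH1 at 0. KRT8 made up most of that sum in every library. EPCAM had a lower mean in invasive than in core libraries, while KRT18 and KRT19 had higher ones, all under 1 FPKM. The part of such cells or programmes in the integrin differences was not tested.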

How the data were processed

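The deposited values are FPKM per gene, computed by the authors. Reads were processed with featureCounts 1.5.0-p3 and HISAT2 2.0.5 on GRCh38, per the submitters' processing notes. Settings and strand use are not given in the sources used here. All 9 value columns were mapped by the column name in each label, and 0 were left unmapped. Identifiers matched GENCODE 29 (100%), which gave exon overlaps and transcript GC content. Whole fragments were recovered from FPKM and gene length (100% within 0.01 fragments). A count of 0 was given a limit of 3 fragments, for counting error only.

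Limma 3.58.1 in R 4.3.3 was fitted to log2(FPKM + 1) with 1 mean per group and a mean-variance trend, over the 11845 genes with at least 1 FPKM in 3 libraries, with Benjamini-Hochberg adjustment and a threshold of 0.05. Fold changes on this scale understate those of weak genes. The GC trend was a loess curve (span 0.3) removed from each library. On simulated data the fits recovered nearly all changed genes with the right sign, but false calls exceeded the nominal share, most in the fit of 6 libraries, so its calls are less certain than their adjusted p states. Voom stayed near the nominal share. The simulation changed few genes, all by the same large factor, with the same spread in every group and no GC trend. It therefore does not show how smaller differences fare in these data.

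Members, lists and tests were chosen with earlier results of these data known. Test values are given for the 3 members with the highest and lowest moderated statistic per contrast, for the 2 highest and lowest other adhesion genes, and ligands are named by mean FPKM, 2 per class. A gene that this rule also names is not reported here. Any other member given with a single value was picked with its values in view. Alternatives were other pseudocounts (0.1, 0.5), filters, scalings, a replicate block, GC removal, voom, the groups alone and each library left out.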

Additional observations from a re-analysis of the deposited data

How the results depend on the processing

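In the fit of all 9 libraries 0 members were called in invasive minus core as reported. The count was 7 with a replicate block (6 higher, 1 lower, 21.3% of all genes called). It was 0 with the replicate block and the GC trend removed together, and 16 with the groups compared alone (52.2% of all genes called). Leaving out 1 library gave 0 to 13, with 11 without MK801 replicate 1 and 13 without MK801 replicate 3. In MK801 minus core it gave 0 to 17, with 17 without MK801 replicate 3, and the replicate block gave 0. In MK801 minus invasive every alternative gave 0 members, and GC removal called 79 genes. On the control libraries alone the count was 16 as reported (52.2% of all genes called) and 8 with the GC trend removed (16.9%). Leaving out 1 library gave 8 to 18 there (3400 to 6448 of all genes called), with 8 without core replicate 3. The count was 6 with no filter, 20 with the replicate block and 19 by voom. It was 8 with the replicate block and GC removal (3 higher, 5 lower). For no filter, the block and voom the share of all genes is not given here, so those counts are not a result about the members. The causes were not tested. The column names of same-numbered core and invasive libraries share a letter and a digit that no label explains, and same-numbered libraries are not said to be paired. For same-numbered core and invasive libraries, deviations from the group means correlated at -0.00701, 0.243 and 0.445. Over all same-numbered pairs, those with MK801 included, the range was -0.15 to 0.608, so the block is a check only. No member given with test values in a contrast reversed its direction there in any alternative. TPM rescaling moved the median of all genes by -0.37 in invasive minus core and -0.35 in MK801 minus core, and turned TNS1 and ITGA6 in the first and ITGA3, PARVA, TNS1, ITGB3, TLN2 and ITGB2 in the second. Depth limits ITGA4, ITGA8, ITGA9 and ITGB6, with 0 to 11 fragments.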
